A study of Homo sapiens with 121 samples.

Results

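The MYC family and its dimer partners are described here in single human embryonic stem cells (hESCs) through 7 genes, MYC, MYCN, MAX, MXI1, MXD4, MNT and MLX, out of 25610 genes read in 121 cells. The 7 genes were listed by name and not picked by a threshold on their values, and each has a row in the table. The cells belong to WA26, an hESC line grown in E8 medium on Matrigel without feeder cells, and all had the same genotype and treatment. In scT&R-seq, the poly(A) RNA of a cell is turned into cDNA by a Smart-seq2 protocol, while its DNA goes into a quantitative PCR of telomeres (T) relative to Alu elements (R), and the resulting T/R ratio measures telomere length. The labels divide the cells into 81 with long telomeres, 25 with medium telomeres and 15 with short telomeres, and the T/R ratios the study lists for them ran from 1.05 to 4.64, from 0.403 to 0.993 and from 0.0398 to 0.346, respectively. No separate culture or batch is named, so each telomere group is 1 sample of a single line. Cells were not taken as replicates, and what follows describes these cells without a p-value.

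MYC and MYCN are basic helix-loop-helix leucine zipper proteins that bind DNA as heterodimers with MAX and activate genes of cell growth, ribosome production and metabolism. MXI1, MXD4 and MNT also pair with MAX, bind the same E-box sites and recruit SIN3-histone deacetylase complexes, and so act as antagonists of MYC. MLX is the partner of the glucose-sensing factors MLXIP and MLXIPL, and it also pairs with MXD4 and MNT. In pluripotent cells, MYC and MYCN are known for overlapping roles in self-renewal and proliferation.

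The E-box CACGTG is the sequence that these dimers bind, and 3 of the 7 genes carry it close to a start site of their own. It was searched in the RefSeq promoter windows of assembly GRCh38.p14, which reach from 250 bases before to 50 bases after the start. The sequence is its own reverse complement, so a match lies on both strands. The windows matched 6 of the 7 genes by symbol (9 windows in all). The E-box was found in 3 of these 9 windows, those of MXD4, MNT and MLX, and in 2548 of all 35116 windows (7.26%). The stretch around each match is printed so that the E-boxes can be compared, 5′ to 3′ on the strand of the gene, with the E-box in capitals.
MXD4: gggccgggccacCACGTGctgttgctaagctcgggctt
MNT: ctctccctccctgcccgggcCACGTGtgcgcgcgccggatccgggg
MLX: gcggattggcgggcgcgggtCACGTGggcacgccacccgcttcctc
In GRCh38.p14 these lie at chr4:2262322-2262359 (minus strand), chr17:2401228-2401273 (minus strand) and chr17:42567030-42567075 (plus strand), where the E-box begins 238, 193 and 50 bases before the start site. A match is a description of the letters and not a binding site. The single window of MYCN, the 2 of MAX and the 3 of MXI1 held no CACGTG.

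The level of a gene is given in TPM, by name a value per transcript length, although how the authors computed it is not stated. The smallest value of a gene above 0 fell with its exon length over 11981 genes (rho -0.454), and levels of genes are set side by side under that limit. The sums per cell were near equal, and a gene was called detected in a cell above 1 TPM. All 6 hESC markers, POU5F1, NANOG, SOX2, LIN28A, DNMT3B and ZFP42, were detected in 113 to 121 cells. The 7 markers of differentiated cells were detected in 0 to 46 cells, with MIXL1 at the upper end and GATA6 at 0 in every cell, and the fibroblast markers COL3A1 and LUM were detected in 0 cells, whereas COL1A2 was detected in 77 and THY1 in 114. Cells had between 2030 and 11515 detected genes, with 8296 ± 2152 (SD, n = 81 cells) in long, 7980 ± 2070 (n = 25) in medium and 5784 ± 2355 (n = 15) in short telomere cells. Since a low number of detected genes moves with the telomere group, each relation was also read on either side of 8000 detected genes, in the 68 cells above it (gene-rich cells; 51 long, 14 medium and 3 short) and in the 53 cells at or under it (gene-poor cells; 30 long, 11 medium and 12 short). The part of the number of detected genes in the differences between telomere groups was not tested. TPM keeps no read number, so the depth behind a value cannot be read from the table, and the exact Clopper-Pearson 95% intervals given for shares cover counting of cells only.

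MYC lies at chr8:128747680-128755197 (plus strand, GRCh37) and had a mean of 51.4 TPM, the 2207th highest of the 25610 genes. It was detected in 88 of 121 cells (72.7%, 63.9 to 80.4%), with a lowest value of 0, a median of 43.5 and a highest value of 218 TPM. In the long group the median was 58.8 TPM (0 to 209), in the medium group 19.3 TPM (0 to 218) and in the short group 0 TPM (0 to 118). The ranges of the 3 groups overlapped. MYC was detected in 67 of 81 long (82.7%), 16 of 25 medium (64%) and 5 of 15 short telomere cells (33.3%), and in the cells that held it the median was 69.4, 41.7 and 69.2 TPM, respectively. Gene-rich cells were MYC positive with a single exception (67 of 68), a medium telomere cell, while only 21 of 53 gene-poor cells were (39.6%, 26.5 to 54.0%). Among the cells that had MYC, the median was 66.9 TPM in gene-rich and 74.0 TPM in gene-poor cells. The highest MYC value, in the cell Medium 13, came with 0 TPM for the other 6 genes.

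MYCN lies at chr2:16080672-16087129 (plus strand, GRCh37) and was less abundant than MYC, with a mean of 23.3 TPM, but was detected in nearly as many cells, 89 of 121 (73.6%, 64.8 to 81.2%). Medium telomere cells had the highest median, 28.7 TPM (0 to 107), followed by 15.9 TPM (0 to 82.5) in long and 0.37 TPM (0 to 85.0) in short telomere cells. The shares of cells with MYCN were 84% (21 of 25) in the medium, 76.5% (62 of 81) in the long and 40% (6 of 15) in the short group. The short cell with the lowest T/R ratio of all, Short 15, had 85.0 TPM of MYCN and 0 TPM of MYC, and it was also the cell with the fewest detected genes. MYCN was found in 65 of 68 gene-rich and in 24 of 53 gene-poor cells. An antisense gene, MYCNOS, overlaps exons of MYCN on the opposite strand. Since the Smart-seq2 protocol does not mark strand, reads from the overlapping stretches cannot be assigned by strand to either gene. MYCNOS was detected in 45 cells, 13 of which lacked MYCN, and 57 cells had MYCN without MYCNOS.

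MAX, the shared partner, is at chr14:65472892-65569413 (minus strand, GRCh37) and was the most widely detected of the 7 genes, in 98 of 121 cells (81.0%, 72.9 to 87.6%) and in all 68 gene-rich cells. Its median was 21.8 TPM (0 to 233) in long, 13.4 TPM (0 to 189) in medium and 0.54 TPM (0 to 2999) in short telomere cells. The value of 2999 TPM came from the cell Short 12, in which the other 6 genes stood at 0, and the next highest short telomere cell had 35.1 TPM. This cell sets the mean of the short group, which was 207 TPM with it and 7.32 TPM without it, and it puts MAX above MYC in mean level: without it, the mean of MAX over the other 120 cells was 32.0 TPM. Exons of MAX overlap those of FNTB and the read-through gene CHURC1-FNTB on the opposite strand, which were detected in 37 and 67 cells.

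MLX, which pairs with MLXIP and MLXIPL, is at chr17:40719090-40725257 (plus strand, GRCh37) and was detected in 88 cells (72.7%), 65 of them gene-rich. Its mean of 22.2 TPM was near that of MYCN. Its median was 17.5 TPM (0 to 85.3) in long and 17.1 TPM (0 to 97.2) in medium telomere cells but 0.15 TPM (0 to 64.5) in short ones, where 5 of 15 cells held it (33.3%) against 62 of 81 (76.5%) and 21 of 25 (84%). Exons of PSMC3IP lie on the opposite strand of the MLX locus, and PSMC3IP was detected in 97 cells. A pseudogene of the MLX name, MLXP1, is annotated as well, so part of these reads may be uncertain in origin.

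The MAX-binding antagonists stood lower. MXI1 (chr10:111967363-112047123, plus strand, GRCh37) had a mean of 6.93 TPM and was detected in 63 of 121 cells (52.1%, 42.8 to 61.2%). Its median was 3.82 TPM (0 to 93.6) in long, 0.62 TPM (0 to 39.5) in medium and 0 TPM (0 to 10.4) in short telomere cells. MXI1 was held by 51 of 68 gene-rich (75%) but only 12 of 53 gene-poor cells (22.6%), the lowest share among the 5 more abundant genes. MNT (chr17:2287367-2304398, minus strand) was detected in 14 cells (11.6%) with a highest value of 11.9 TPM. MXD4 (chr4:2249159-2263836, minus strand) was detected in 11 cells (9.09%) with a highest value of 12.2 TPM. In short telomere cells, MXD4 was at 0 TPM in each of the 15, and 0 of 15 cells allows a share of up to 20% when 3 counts of the total are taken as the limit (21.8% by the exact interval), while it was detected in 8 of 81 long and 3 of 25 medium telomere cells, so a difference was not detectable at this number of cells.

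**Figure D1:**
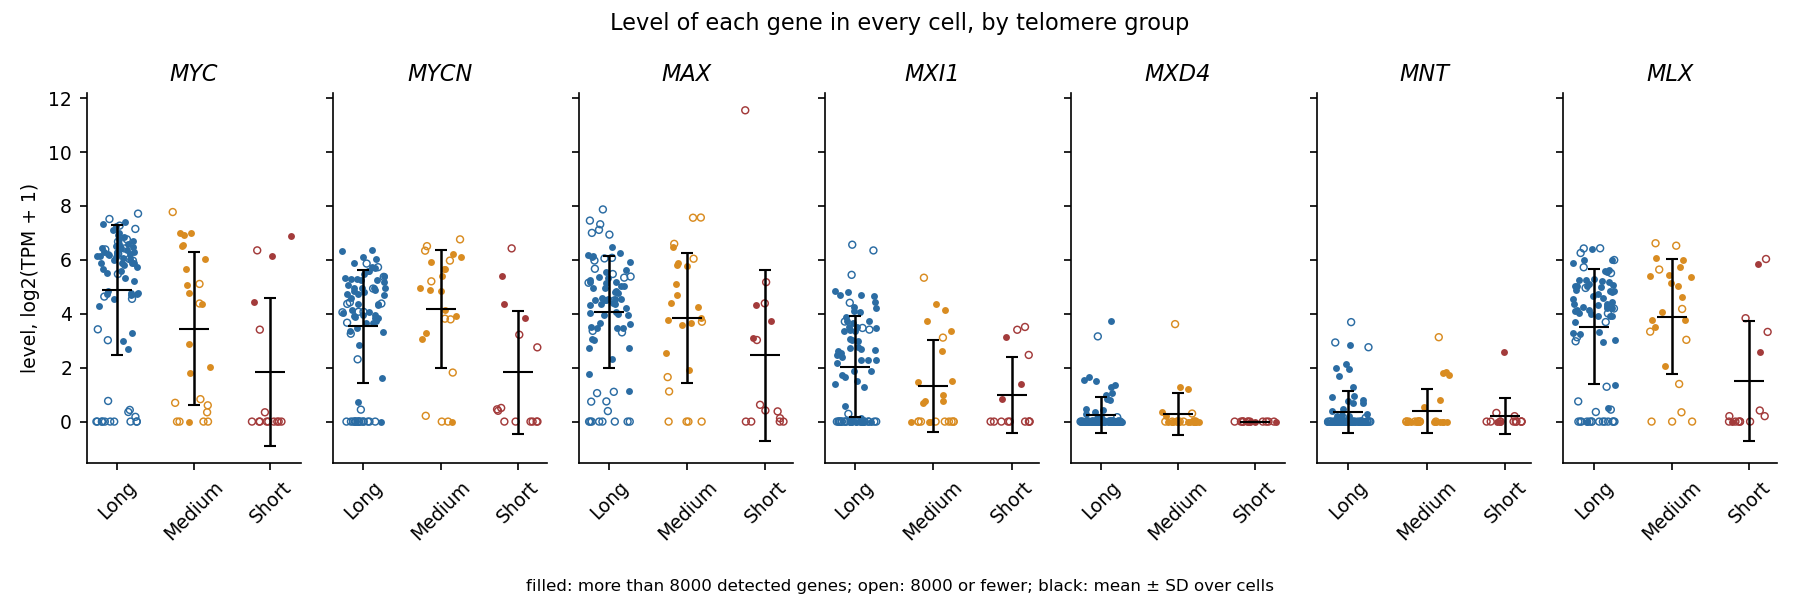
Level of each of the 7 genes in every cell as log2(TPM + 1), by telomere group (81 long, 25 medium and 15 short cells). Filled points are cells with more than 8000 detected genes, open points those with 8000 or fewer, and black bars give the mean ± SD over cells. For MYC, MYCN, MAX, MXI1 and MLX most points at 0 are open, and the MAX value of 2999 TPM in Short 12 stands above all others.

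In order of mean TPM, MAX (56.5) and MYC (51.4) came first, followed by MYCN (23.3), MLX (22.2), MXI1 (6.93), MNT (0.587) and MXD4 (0.403). On the log2(TPM + 1) scale the order was MYC (4.20 ± 2.74, SD, n = 121 cells), MAX (3.82 ± 2.34), MYCN (3.45 ± 2.23), MLX (3.35 ± 2.24), MXI1 (1.76 ± 1.83), MNT (0.34 ± 0.78) and MXD4 (0.22 ± 0.64). Neighbours in this order differed by less than the SD of either gene across cells, except MXI1 and MNT, whose difference exceeded the SD of MNT but not that of MXI1. MYC was the highest of the 7 genes in 60 cells, MAX in 28, MYCN in 16, MLX in 13 and MXI1 in 2, and neither MXD4 nor MNT was the highest in any cell. At least 5 of the 7 genes were detected together in 53 cells, 51 of them gene-rich, and 7 cells, all gene-poor, had none above 1 TPM.

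MYC and MYCN were mostly found together. Both were detected in 74 of 121 cells (61.2%, 51.9 to 69.9%), MYC without MYCN in 14 (11.6%), MYCN without MYC in 15 (12.4%) and neither in 18 (14.9%). If the 2 genes were detected independently, the product of their single shares would give 53.5% of cells with both and 7.21% with neither. Among gene-rich cells, 64 of 68 had both (94.1%), where the single shares of 98.5% and 95.6% left the joint share little room to differ, and 0 of 68 had neither, which allows a share of up to 4.41% by the same limit of 3 counts (5.28% by the exact interval). In gene-poor cells the classes were spread out, with both in 10 (18.9%), MYC alone in 11 (20.8%), MYCN alone in 14 (26.4%) and neither in 18 of 53 (34.0%), and the products of the single shares were 17.9, 21.7, 27.3 and 33.0%. Each joint share in gene-poor cells was thus close to the product.

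On the log2 scale, the summed level of MYC and MYCN had a smaller SD across gene-rich cells than either gene, but not in TPM, where the SD was 44.8 for the sum, 41.2 for MYC and 20.0 for MYCN. In gene-rich cells the sum ran from 6.29 to 221 TPM with a median of 88.6, and its mean on the log2(TPM + 1) scale was 6.40 ± 0.83 (SD, n = 68 cells), compared with 5.61 ± 1.43 for MYC and 4.51 ± 1.32 for MYCN. Every gene-rich cell thus held at least 1 of the pair above 1 TPM. The single medium telomere cell without MYC and the 3 cells without MYCN in this set each had the other gene. MYC was higher than MYCN in 55 of 68 gene-rich cells, and the difference of MYC minus MYCN on the log2 scale ran from -5.67 to 6.84, so cells led by either gene occurred.

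**Figure D2:**
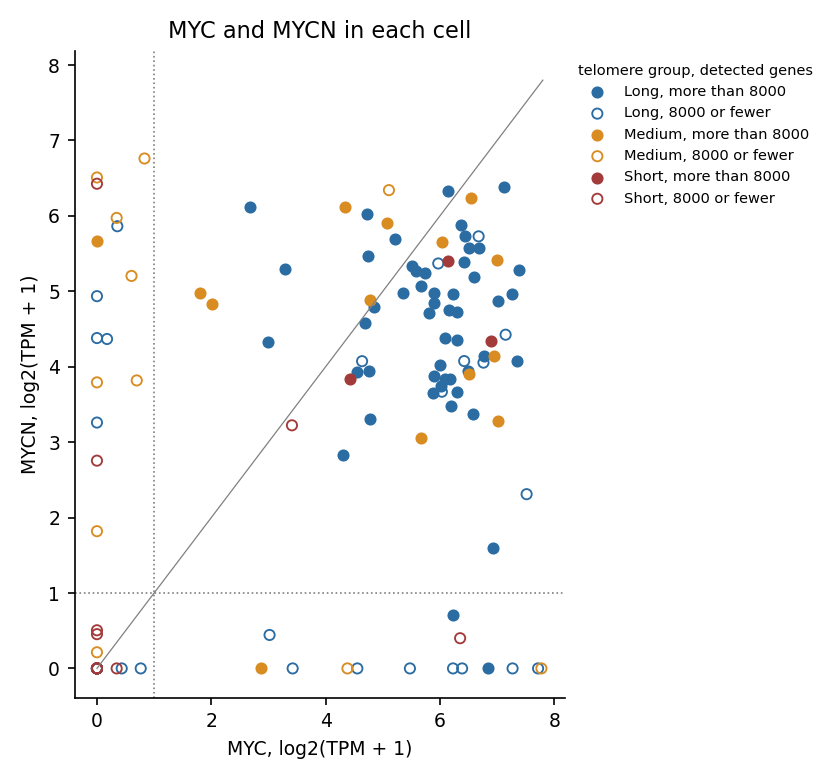
MYC (x axis) against MYCN (y axis) in each of the 121 cells, both as log2(TPM + 1), with colour for the telomere group and filled points for cells with more than 8000 detected genes. Dotted lines mark 1 TPM and the grey line marks equal levels. Of the 68 filled points, 64 lie in the quadrant where both genes are detected and 55 lie below the line of equal levels.

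The balance of the 2 genes differed between long and medium telomere cells. MYC was the higher in 62 long telomere cells and MYCN in 12 (7 equal), whereas in the medium group MYC was the higher in 10 and MYCN in 15. In the short group MYC was the higher in 6, MYCN in 4, and both were equal, at 0 TPM, in 5. The counts include values under the detection limit of 1 TPM. In the short group, MYCN led at 0.37 and 0.42 TPM in Short 13 and Short 14. MYC led at 0.27 TPM in Short 11. MYCN without MYC was found in 8 of 25 medium telomere cells (32%, 14.9 to 53.5%) and in 5 of 81 long telomere cells (6.17%, 2.03 to 13.8%). Of these 8 medium telomere cells 7 were gene-poor, out of 11 gene-poor cells of that group (63.6%, 30.8 to 89.1%), as against 5 of 30 gene-poor long telomere cells (16.7%, 5.64 to 34.7%). These intervals cover the counting of cells only, and a difference between the groups was not tested. Among the 12 gene-poor short telomere cells, 8 had neither gene (66.7%), 2 had MYCN alone, 1 had MYC alone and 1 had both. All 3 gene-rich short telomere cells had both genes, with MYC at 20.4, 69.2 and 118 TPM and MYCN at 13.4, 41.1 and 19.4 TPM.

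By T/R ratio, the cells with both genes had a median of 1.59 (0.198 to 4.64) and those with MYC alone 1.57 (0.319 to 2.90). The median was 0.943 (0.0398 to 4.57) with MYCN alone and 0.953 (0.0663 to 4.15) with neither. The ranges of the 4 classes overlapped. The median number of detected genes was 9563 in cells with both, 6289 with MYC alone, 5773 with MYCN alone and 5410 with neither.

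**Figure D3:**
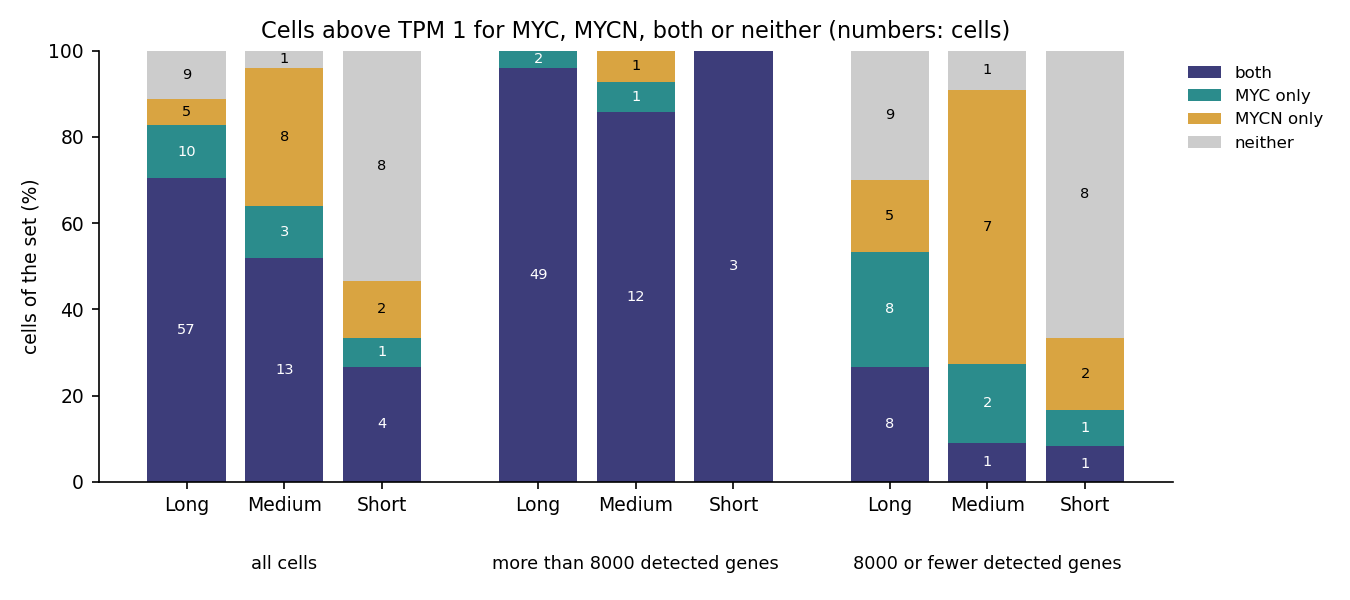
Percentage of cells (y axis) with MYC and MYCN both above 1 TPM, MYC alone, MYCN alone or neither, by telomere group, over all cells, over gene-rich and over gene-poor cells. Numbers in the bars are cells. Among gene-poor cells, MYCN alone is the main class in medium telomere cells (7 of 11) and neither is the main class in short telomere cells (8 of 12).

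The long and short groups were compared by the difference of their mean log2(TPM + 1), and a difference of 1 or more was called, which corresponds to a 2-fold change. This scale understates the change of low genes. MYC had the largest difference of the 7, with 4.87 ± 2.42 (SD, n = 81 cells) in long and 1.84 ± 2.75 (n = 15) in short telomere cells. The difference of 3.04 exceeded the SD of both groups, and the long telomere cell was the higher in 74.2% of all long-short pairs. Cells without MYC enter these means, so the difference is not a fold change within MYC positive cells. In those the mean was 5.87 ± 1.13 in 67 long and 5.44 ± 1.46 in 5 short telomere cells. MLX was 2.03 higher in the long group (3.52 ± 2.13 against 1.50 ± 2.23), MYCN 1.71 (3.53 ± 2.11 against 1.82 ± 2.28), MAX 1.61 (4.07 ± 2.07 against 2.46 ± 3.18) and MXI1 1.05 (2.04 ± 1.88 against 0.98 ± 1.42), and each of these lay within the SD of at least 1 group. Without Short 12 the difference of MAX was 2.26, a setting chosen after the values were seen. MXD4 (0.24) and MNT (0.14) stayed under the threshold.

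More than the members moved in this direction. Of all 25610 genes, 20.4% were called higher in the long group, and of the 11770 genes above 1 TPM in at least 25 cells, 44.3% were, with a median difference of 0.85. Of the 7 genes 5 were called, and none was called higher in the short group. With a pseudocount of 10, MYC (1.50) was still called and MLX (0.81), MYCN (0.70), MAX (0.57) and MXI1 (0.39) were not, and without the 4 cells under 4000 detected genes MAX (0.79) and MXI1 (0.70) fell under the threshold. Neither MXD4 nor MNT is among the 11770 genes. MYC lay at percentile 98.6 of these genes, MLX at 87.3, MYCN at 80.1, MAX at 77.3 and MXI1 at 58.0. Within gene-rich cells, with only 3 short telomere cells, 12.7% of genes were called higher in long and the differences of MYC (0.02) and MYCN (-0.04) were close to 0, while MAX (0.70) and MXI1 (0.79) lay below the threshold and MLX (1.57) above it. Within gene-poor cells, where 30.1% of genes were called, MYC (2.39) and MAX (1.33) were called and MLX (0.90), MYCN (0.75) and MXI1 (0.34) were not. The MYC difference in gene-poor cells (3.23 ± 3.13, n = 30 against 0.84 ± 1.99, n = 12) was smaller than the SD of the long group.

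**Figure D4:**
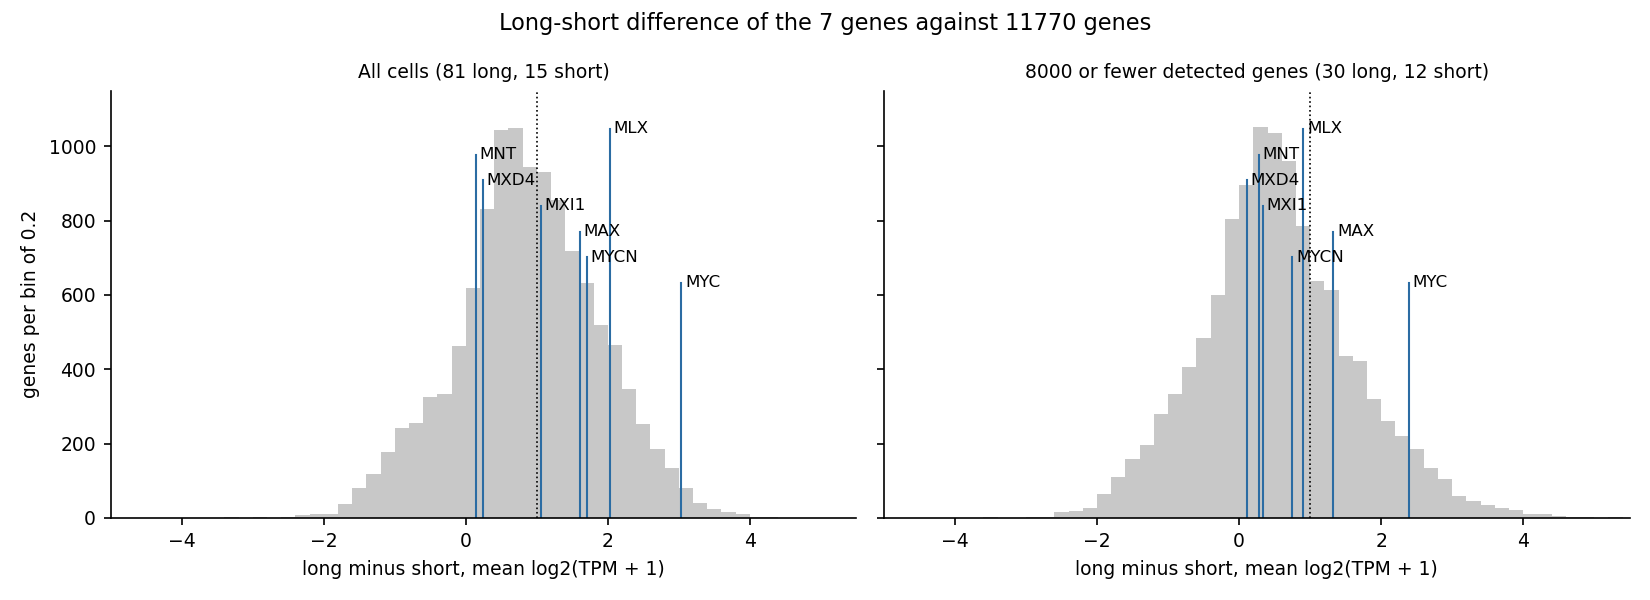
Long-short differences of mean log2(TPM + 1) of the 7 genes (blue lines) over the histogram of the 11770 genes above 1 TPM in at least 25 cells, for all cells and for cells with 8000 or fewer detected genes. The dotted line marks the threshold of 1, and the height of a blue line has no meaning. MYC lies in the upper tail in both panels, at 3.04 and 2.39.

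Between long and medium telomere cells, MYC and MYCN differed in opposite directions, and each difference lay within the SD across cells of at least the medium group. Between the long and medium groups, 1.02% of the 11770 genes were called higher in long, and MYC, with a difference of 1.42, was among them, unlike the other 6 (percentile 99.9). MYC was 1.08 higher in long within gene-rich cells, where 1.05% of genes were called higher in long, and 1.44 higher within gene-poor cells. The long telomere cell had more MYC in 60.5% of long-medium pairs of gene-rich cells and in 53.0% of those of gene-poor cells. In gene-rich cells the medium group includes 1 cell at 0 TPM of MYC. Its 13 MYC positive cells had a mean of 5.12 ± 1.87, against 5.84 ± 1.05 in the 51 long telomere cells. MYCN went the other way, with a long-medium difference of -0.65 at percentile 1.96 of the genes. In gene-poor cells MYCN was 1.78 lower in long than in medium telomere cells (1.90 ± 2.27, n = 30 against 3.68 ± 2.73, n = 11), where 5.72% of genes were called higher in medium and 6.79% higher in long. In gene-rich cells the MYCN difference was only -0.09. Among these 11 gene-poor medium telomere cells, MYCN reached 107 TPM in Medium 20, 90.1 TPM in Medium 16 and 80.1 TPM in Medium 23. Between the medium and short groups, 38.5% of genes were called higher in medium, and so were MLX (2.39), MYCN (2.36), MYC (1.62) and MAX (1.38), of which MLX and MYCN differed by more than the SD of either group. In gene-poor cells 29.5% of genes were called higher in medium. Among them were MLX (1.66) and MYCN (2.53), but not MYC (0.95) and MAX (0.97). In gene-rich cells, with 3 short telomere cells, 12.2% of genes were called higher in medium and 11.7% higher in short. There MLX was 1.90 higher in medium, while MYC was 1.06 lower in medium than in short (4.75 ± 2.26 against 5.82 ± 1.27).

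Over the T/R ratio itself, MXI1 had the highest coefficient of the 7 genes. The Pearson correlation of its TPM with the T/R ratio over 121 cells was 0.356 (Spearman's rho 0.280), the 55th highest of the 11770 genes, whose median was 0.017. It was 0.260 in gene-rich cells (rho 0.341, n = 68) and 0.387 in gene-poor cells (rho 0.232, n = 53). MXI1 reached 93.6 TPM in Long 5 and 80.6 TPM in Long 2, gene-poor cells with T/R ratios of 3.31 and 4.57. Without these 2 cells, a setting chosen after the values were seen, the correlation was 0.166. Within gene-rich cells, MXI1 was detected in 42 of 51 long (82.4%), 7 of 14 medium (50%) and 2 of 3 short telomere cells.

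The coefficients of the other 6 genes were smaller. MYC had 0.155 (rho 0.210), with 0.019 in gene-rich and 0.229 in gene-poor cells. MYCN had -0.026 (rho 0.020), MNT 0.059 (rho 0.000) and MXD4 0.015 (rho 0.104). MAX had -0.124 with rho 0.089, and without Short 12 it was 0.089, so its negative sign came with that cell. MLX had -0.118 over all cells and -0.219 in gene-rich cells. Within the long group (n = 81), where the median over genes was -0.015, MXI1 had 0.371, MYC -0.114 and MLX -0.325. Within the medium group (n = 25) MXI1 had 0.0068, MYC 0.134 and MLX -0.233. Within the short group (n = 15), where the median over genes was 0.165, MLX had 0.617, MYC 0.584 and MXI1 0.376. After taking out the number of detected genes, the partial correlations in this group were 0.552, 0.285 and 0.114, respectively. The cells share a line and a protocol, and the coefficients describe this set of cells.

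**Figure D5:**
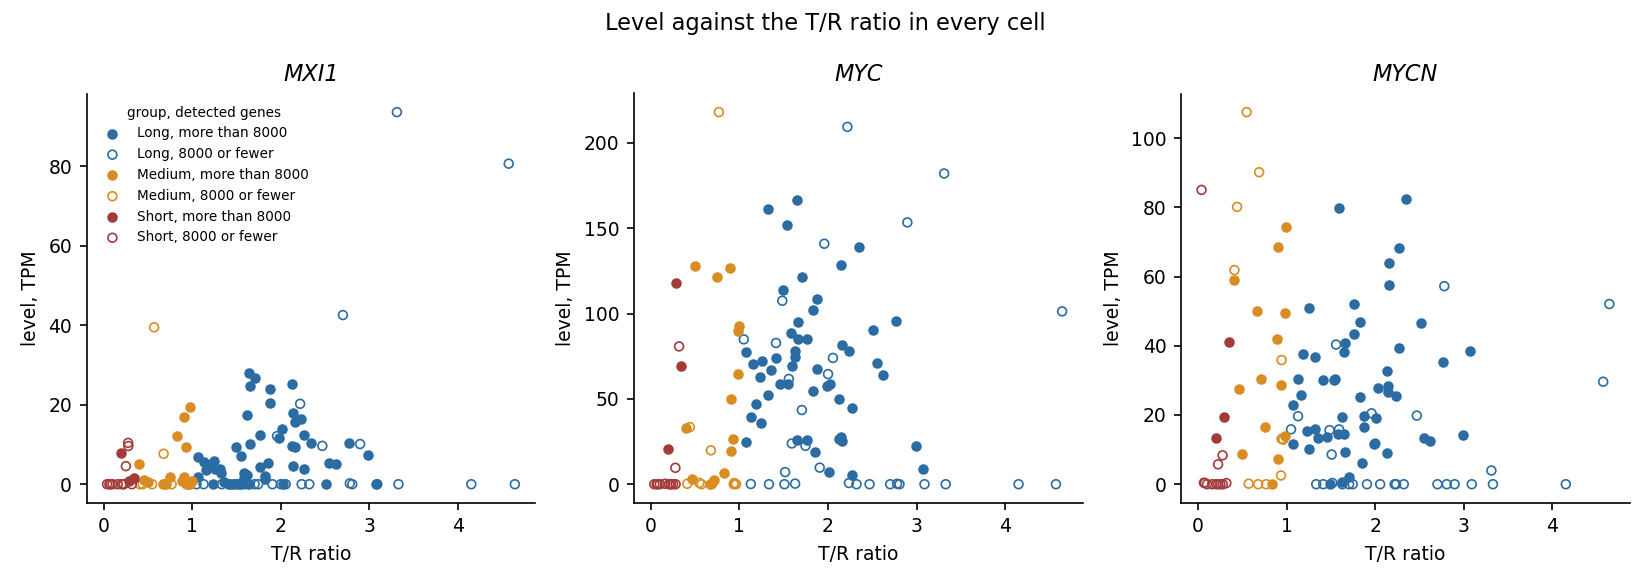
TPM of MXI1, MYC and MYCN (y axes) against the T/R ratio (x axis) in the 121 cells, coloured by telomere group and filled for cells with more than 8000 detected genes. The 2 highest MXI1 values, 93.6 and 80.6 TPM, lie at high T/R ratios, and the highest MYCN value lies in a medium telomere cell.

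Between members, the 21 pairwise correlations of log2(TPM + 1) over all cells ranged from -0.07 to 0.44 with a median of 0.14. MYC and MLX had the highest (0.436), and MYC and MYCN had 0.320. In gene-rich cells the median was 0.03 and the range -0.27 (MYC and MAX) to 0.26 (MYC and MLX), and the MYC-MYCN correlation was -0.064. The levels themselves moved with the number of detected genes, with correlations of 0.61 for MYC, 0.54 for MLX, 0.52 for MYCN, 0.38 for MXI1, 0.34 for MAX, 0.18 for MNT and 0.13 for MXD4. After taking out that number, the partial correlation of MYC with MYCN was 0.0070.

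Of 33 other genes of the network, 17 were called higher in long and 1 in short telomere cells (3.78% of the 11770 genes were called higher in short), with a median difference of 1.07. The share higher in long, 51.5%, lay near the 44.3% of the 11770 genes. MXD1 and MLXIPL are in the list but not among those 11770. Among the cofactors of MYC, 6 of 9 were higher in long, led by the ATPases RUVBL2 (2.45; mean of 172 TPM) and RUVBL1 (2.15; 136 TPM), while ACTL6A, an actin-like chromatin remodelling subunit, had a mean of 169 TPM. Of the 9 genes acting on MYC protein turnover 7 were higher in long, with AURKA, a mitotic kinase that stabilises MYCN protein, at 2.05. Among the other 6 MAX and MLX network factors, only MYCL, the third MYC gene, was called (1.07; detected in 54 cells), and MLXIP, the partner of MLX, was at 0.06. The gene called higher in short was MYCNOS (-1.18), with 1.30 ± 1.87 in long and 2.49 ± 2.19 in short telomere cells, and it was detected in 29 of 81 long, 6 of 25 medium and 10 of 15 short telomere cells. MYCN itself was lower in the short group, and reads from the exon stretches where it overlaps MYCNOS cannot be assigned by strand. In gene-rich cells, 3 of the 33 genes (9.09%) were called higher in long and 5 in short (median of the list 0.09). There, 12.7% of the 11770 genes were called higher in long and 9.15% in short. In gene-poor cells 14 (42.4%) were called higher in long and 0 in short, against 30.1% of genes higher in long and 7.42% in short (median 0.71).

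Of 49 genes commonly given as MYC targets, 31 (63.3%) were called higher in long and 0 in short telomere cells. Of the 11770 genes, 44.3% were called higher in long, with a median difference of 0.85 against 1.48 for the targets. Neither this list nor that of the network was matched to the 11770 genes in level, and the scale understates low genes. TERT and CDKN1A are in the list of targets but not among those 11770. Ribosome biogenesis gave 11 of 19, nucleotide and polyamine synthesis 7 of 10, glucose use 3 of 5, the cell cycle 3 of 6 and translation 3 of 3. The largest differences were those of LDHA, lactate dehydrogenase (3.27), RCL1, a pre-rRNA processing factor (2.80), and APEX1, a DNA repair endonuclease (2.65). Among targets above 1 TPM in at least 25 cells, the lowest were E2F2, a cell cycle transcription factor (-0.35), the nucleolar protein NOP16 (0.03) and the mitochondrial chaperonin HSPE1 (0.18). NPM1, nucleophosmin, was the most abundant of the list with a mean of 3925 TPM, followed by HSPE1 with 2006 TPM and the translation initiation helicase EIF4A1 with 1938 TPM (difference 2.09). In gene-rich cells 5 of the 49 (10.2%) were called, against 12.7% of the 11770 genes. All of these 5 were in ribosome biogenesis, the median of the list was 0.15, and LDHA was at -0.13. In gene-poor cells 24 (49.0%, against 30.1%) were called, with a median of 0.98 against 0.48 over the 11770 genes, and LDHA was at 3.79.

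Cell by cell, the correlations of the targets with MYC had a median of 0.279 over all cells, against 0.258 for the 11769 other genes, 0.022 against 0.031 in gene-rich cells and 0.165 against 0.109 in gene-poor cells. With MYCN the medians were 0.194 for the targets and 0.191 for the 11769 other genes, and 0.051 against 0.009 in gene-rich cells. The network genes had medians of 0.329 with MYC over all cells and 0.065 in gene-rich cells, and of 0.197 and -0.016 with MYCN.

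The genes whose log2(TPM + 1) was most like that of MYC over the 121 cells were WDR36, a component of pre-ribosomal particles (r = 0.770), PYGL, liver glycogen phosphorylase (0.735), IER3, an immediate early response gene (0.731), FASTKD1, a mitochondrial RNA regulator (0.731), and CAPRIN1, an RNA-binding protein (0.723). In gene-rich cells these 5 had correlations of 0.522, 0.263, 0.395, 0.478 and 0.252 with MYC. Over gene-rich cells alone the closest were EIF4A2 (0.589), MEX3C (0.573), GCA (0.550), RNF26 (0.540) and AQR (0.538). For MYCN, genes among the closest over all cells were RRAGA (0.593), DPAGT1 (0.560), RPL22L1 (0.536) and LARP4 (0.535), but in gene-rich cells their correlations with MYCN were 0.080, 0.057, 0.038 and -0.003. In gene-rich cells, SNF8 (0.528), NFATC2IP (0.496), THAP3 (0.445), TSPAN5 (0.429) and EMC10 (0.420) were closest. None of the other 6 members was among the 5 genes closest to MYC or MYCN, and MYCN ranked 4466th for MYC over all cells.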

How the data were processed

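The authors deposited a table of TPM values with 1 column for each of 121 cells. According to the methods, reads were mapped to hg19 with TopHat v2.1.0, counted per RefGene gene with HTSeq and scaled by a size factor function, whereas the submitters' processing notes name TopHat2 and RSEM, and how TPM was computed is not given in the sources used here. The 25610 genes read end at ZFR, and later symbols were not analysed here. TPM summed to 979828 to 997050 per cell over these genes, and read numbers behind the values were not used here. All columns were mapped to a labelled cell (0 unmapped), and T/R ratios are those the study lists.

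A pseudocount of 1 TPM was used on the log2 scale, a gene was detected above 1 TPM, and differences of at least 1 were called. Shares have exact 95% intervals. Pearson correlations with the T/R ratio used TPM. The study also names Pearson's correlation, but its methods do not give the scale of expression used for it. No p-value was computed, since each telomere group is 1 sample. The members, gene lists and the split at 8000 detected genes were chosen with earlier results of these data known. Of each list, the 3 highest and 3 lowest long-short differences among genes above 1 TPM in at least 25 cells and the most abundant genes were named, and for MYC and MYCN the 5 most correlated genes over all and over gene-rich cells. Not every gene that this rule picks is reported here. MYCL was named outside this rule after its values were seen. Gene positions are from GENCODE for GRCh37 and promoter windows from RefSeq for GRCh38.p14. Alternatives were other pseudocounts, detection limits, sets of cells, scalings and coefficients. The calculations were tested on simulated data. Tools were Python 3.11.15 with pandas 2.3.3, scipy 1.17.1, numpy 2.4.6 and, for plots, matplotlib 3.10.9.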

Additional observations from a re-analysis of the deposited data

How the results depend on the processing

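Of 252 recomputed values of 30 results, 209 moved by less than the spread given for them (1 SD across cells for levels and differences, the 95% interval for shares, 0.1 for correlations and 1.5 times for numbers of genes), 36 moved by more, and 7 changed sign from a difference of at least 1 or a correlation of at least 0.1 in size. Smaller values also changed sign, such as the long-short difference of MNT, which was -0.49 in gene-rich cells. In cells with more than 8000 detected genes, MYC was detected in 98.5% and MYCN in 95.6% of cells, both in 94.1%, MYC alone in 4.41%, MYCN alone in 1.47% and neither in 0%. In the other cells the shares were 39.6, 45.3, 18.9, 20.8, 26.4 and 34.0%. Detection above 10 TPM gave 64.5% of cells with MYCN and 50.4% with both. The long-short difference was 0.023 for MYC and -0.037 for MYCN in gene-rich cells, and 5.90 for MYC with group medians. Between the 40 cells of highest and the 40 of lowest T/R ratio it was -0.15 for MLX, 0.093 for MYCN and 0.45 for MAX. In that setting MYC (1.48) and MXI1 (1.33) stayed above 1. After scaling by median ratios MXI1 had 0.70. The mean level with a pseudocount of 10 was 3.86 for MXI1, 3.37 for MXD4 and 3.39 for MNT, and with 0.1 it was -2.67 for MXD4 and -2.39 for MNT. The correlation with the T/R ratio in gene-rich cells was 0.019 for MYC, 0.103 for MAX, -0.060 for MNT and -0.219 for MLX. For MAX it was 0.089 by Spearman, 0.044 on the log2 scale and 0.089 without Short 12, and for MXI1 0.166 without its 2 highest cells. The last 2 settings were chosen after the values were seen. The correlation of MYC with MYCN was 0.208 with a pseudocount of 10, 0.217 by Spearman, -0.064 in gene-rich and 0.031 in gene-poor cells and 0.0070 given the number of detected genes. The number of network genes called higher in long was 26 and 4 with pseudocounts of 0.1 and 10, 3 in gene-rich cells, and 11 each without the 4 cells under 4000 detected genes and after scaling by median ratios. For targets it was 17 with a pseudocount of 10 and 5 in gene-rich cells. The median difference of the 11770 genes was 0.96 after rescaling without ribosomal protein genes and 0.59 after scaling by median ratios, against 0.85. The causes were not tested.

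No paired analysis was possible because the results come from no test and the number in a label only names a cell. With 15 short telomere cells, 3 of them gene-rich, and TPM without read numbers, low genes such as MXD4 and MNT could not be compared at a known depth. Cells of 1 line without named cultures leave the spread between cultures unmeasured.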
